A study of Mus musculus with 9 samples.

Results

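The S100 genes encode small calcium-binding proteins, and 10 of them (S100a1, S100a3, S100a4, S100a5, S100a6, S100a8, S100a9, S100a10, S100a11 and S100a13) were followed in mouse T cells cultured under conditions that induce T helper 17 (Th17) cells. The members were taken by gene symbol from a table of 22180 named genes, and the probe set of each gene was chosen by the highest mean level over the arrays. Each of the 10 members had 1 probe set, so that step excluded none. The members were listed after results of these arrays were known, the change of S100a6 among them, so its place in the list is no independent evidence of that change.

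RNA came from 9 samples on 9 arrays, 3 of each genotype. Naive CD4+ T cells sorted from mouse spleen (CD25-, CD44 low, CD62L high) were kept for 60 h on plate-bound antibodies to CD3 and CD28 (10 µg/ml each) with TGF-β1 (1 ng/ml), IL-6 (30 µg/ml, as the labels write it) and 2 µg/ml each of antibodies that block IL-4 and IFN-γ. This treatment was shared by all 3 groups. The groups were wild type (WT), SRG3-deficient cells from conditional knockout mice (SRG3 cKO) and RORγt-deficient cells (RORγt KO). SRG3 is encoded by Smarcc1 and belongs to the Swi/Snf complex, which moves nucleosomes. RORγt is a nuclear receptor on which the Th17 programme depends. The Cre line behind the conditional knockout and the age of the mice are not given in the sources used here. The arrays are called biological replicates without a statement that they came from separate mice, so p-values measure only the spread between these samples.

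S100 proteins carry a pair of calcium-binding EF-hand motifs and mostly act as dimers. On binding calcium they expose a surface that docks onto other proteins, among them annexins, myosin and cytoskeletal scaffolds, and some are also released and signal through RAGE or TLR4. S100A10 is the exception that has lost calcium binding, and it is held in a stable complex with annexin A2. S100A8 and S100A9 together form calprotectin, an abundant product of neutrophils and monocytes, while S100A4, S100A6, S100A10 and S100A11 are known from activated and memory T cells.

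Of the 10 members, S100a6 rose in SRG3 cKO cells and S100a10 rose in RORγt KO cells, both against WT. The other 8 members passed the test in no comparison. S100a6 was 1.54-fold higher in SRG3 cKO than in WT cells, and S100a10 was 1.28-fold higher in RORγt KO than in WT cells. Anxa2, the gene for the partner of S100A10, was 1.58-fold higher in RORγt KO cells as well. Levels are log2 probe set intensities, a change is a difference of group means on that scale, and a gene is said to rise or fall only where its limma p-value, adjusted by the Benjamini-Hochberg method over all 22180 genes, was below 0.05.

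Promoter windows of the RefSeq table (build GRCm38.p6) were found for 9 of the 10 members, with 12 windows in all since S100a3 had 4. The member without a window was S100a10, so its promoter was not searched for motifs. The 250 bases before the start site are shown for S100a6, which rose in SRG3 cKO cells, for S100a4, which lies next to it but one in the gene cluster and did not pass, for S100a11, which was the steadiest member, and for Anxa2, which rose in RORγt KO cells, as S100a10 did. They are chr3:90612644-90612893, chr3:90603520-90603769, chr3:93520246-93520495 and chr9:69453433-69453682, all on the plus strand and written 5′ to 3′. Capitals mark matches, on either strand, to a ROR core half-site (AGGTCA), an AP-1 site (TGANTCA), a STAT site (TTCNNNGAA), a TATA box (TATAAA) or a GC box (GGGCGG).
S100a6: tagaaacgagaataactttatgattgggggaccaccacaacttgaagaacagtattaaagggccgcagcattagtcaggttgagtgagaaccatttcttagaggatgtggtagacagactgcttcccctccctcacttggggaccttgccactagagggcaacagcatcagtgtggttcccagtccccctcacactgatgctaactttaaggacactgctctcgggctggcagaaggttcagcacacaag
S100a4: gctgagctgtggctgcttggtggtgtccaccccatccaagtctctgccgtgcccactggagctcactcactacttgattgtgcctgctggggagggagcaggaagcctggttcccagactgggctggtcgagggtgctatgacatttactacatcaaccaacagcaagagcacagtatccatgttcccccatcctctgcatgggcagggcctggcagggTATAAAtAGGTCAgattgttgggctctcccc
S100a11: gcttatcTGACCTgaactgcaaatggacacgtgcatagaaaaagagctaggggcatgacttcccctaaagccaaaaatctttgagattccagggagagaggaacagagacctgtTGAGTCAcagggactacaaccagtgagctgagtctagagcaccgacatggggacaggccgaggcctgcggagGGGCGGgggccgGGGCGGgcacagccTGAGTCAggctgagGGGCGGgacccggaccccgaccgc
Anxa2: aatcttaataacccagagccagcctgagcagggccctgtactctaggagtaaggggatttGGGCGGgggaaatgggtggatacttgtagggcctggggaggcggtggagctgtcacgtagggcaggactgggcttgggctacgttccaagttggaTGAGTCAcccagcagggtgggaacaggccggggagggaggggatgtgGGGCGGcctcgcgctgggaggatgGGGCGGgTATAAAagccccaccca

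The S100a6 window held none of the 5 motifs. The S100a4 window had a TATA box 31 to 26 bases before the start and a ROR core half-site 24 to 19 bases before it. The S100a11 window had 2 AP-1 sites, 3 GC boxes and 1 ROR core half-site, and the Anxa2 window 1 AP-1 site, 3 GC boxes and 1 TATA box. No match overlapped a match to another motif. Of the other members, S100a8 had a TATA box 30 to 25 bases before the start, and S100a9 a GC box. Of the 4 S100a3 windows, 1 had a ROR core half-site with a TATA box and 1 a ROR core half-site with a GC box. Over all 32851 windows of this length, the ROR core half-site was found in 14%, the AP-1 site in 6.75%, the STAT site in 7.02%, the TATA box in 12.4% and the GC box in 32.7%. A match is a run of letters, and binding was not measured. The windows of S100a1 and S100a13, of 300 bases each, lie on opposite strands and share 204 bases, so these genes start back to back.

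S100a6 encodes calcyclin, which binds the ubiquitin ligase adaptor CacyBP (Cacybp) and annexins. WT arrays read 7.12, 7.23 and 6.90, SRG3 cKO arrays 7.83, 7.71 and 7.58, and RORγt KO arrays 7.16, 7.23 and 7.03. Every SRG3 cKO array lay above every WT and every RORγt KO array, while the WT and RORγt KO arrays overlapped. The change in SRG3 cKO against WT was 0.62 (SE 0.09, 95% interval 0.41 to 0.83, limma adjusted p = 0.0277, n = 3 per group). In RORγt KO against WT it was 0.05 (-0.16 to 0.26, adjusted p = 0.866). The direct comparison of the knockouts, which tests whether those values differ, gave 0.56 higher in SRG3 cKO (0.35 to 0.77, adjusted p = 0.0206). The change in SRG3 cKO against WT kept its direction in all 20 alternatives, but its call did not hold in all. It was lost, with adjusted p from 0.0562 to 0.121, when any of WT replicates 1, 2 and 3, SRG3 cKO replicates 1, 2 and 3 or RORγt KO replicate 1 was left out, and at 0.115 in a fit of the 6 arrays of these groups alone. With the replicate number as a block the adjusted p was 0.00375 in 9 arrays and 0.0557 in 6. The call between the knockouts was lost without SRG3 cKO replicate 1 or 2 or any RORγt KO array, with adjusted p from 0.0513 to 0.0843. On the first principal component WT replicate 1, SRG3 cKO replicate 1 and RORγt KO replicate 3 lay apart from their groups. Without these 3 arrays S100a6 stood at 0.58 against WT (adjusted p = 0.216) and 0.45 between the knockouts (adjusted p = 0.221).

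S100a10 encodes p11, the annexin A2 ligand, which brings channel proteins to the plasma membrane and binds plasminogen at the cell surface. WT arrays read 10.63, 10.71 and 10.64, SRG3 cKO arrays 10.64, 10.75 and 10.77, and RORγt KO arrays 11.00, 11.07 and 10.97. The RORγt KO arrays lay above all others, and the SRG3 cKO and WT arrays overlapped. The change in RORγt KO against WT was 0.36 (SE 0.05, 95% interval 0.25 to 0.46, limma adjusted p = 0.0129, n = 3 per group). In SRG3 cKO against WT it was 0.06 (-0.04 to 0.17, adjusted p = 0.676), and the direct comparison put SRG3 cKO below RORγt KO (-0.29, -0.40 to -0.19, adjusted p = 0.0180). The call in RORγt KO against WT was lost without WT replicate 3, RORγt KO replicate 1 or RORγt KO replicate 2, with adjusted p from 0.0554 to 0.0570, and at 0.0616 with the replicate number as a block in the 6 arrays of these groups. With that block in 9 arrays the adjusted p was 0.00881. The call between the knockouts was lost without SRG3 cKO replicate 1 or 2 or RORγt KO replicate 1 or 2, from 0.0585 to 0.0774, and at 0.0651 in the 6 arrays alone. It was also lost with the replicate number as a block in those 6 arrays. Without the 3 arrays that lay apart, S100a10 stood at 0.36 in RORγt KO against WT (adjusted p = 0.0392) and at -0.28 between the knockouts (adjusted p = 0.116).

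**Figure D1:**
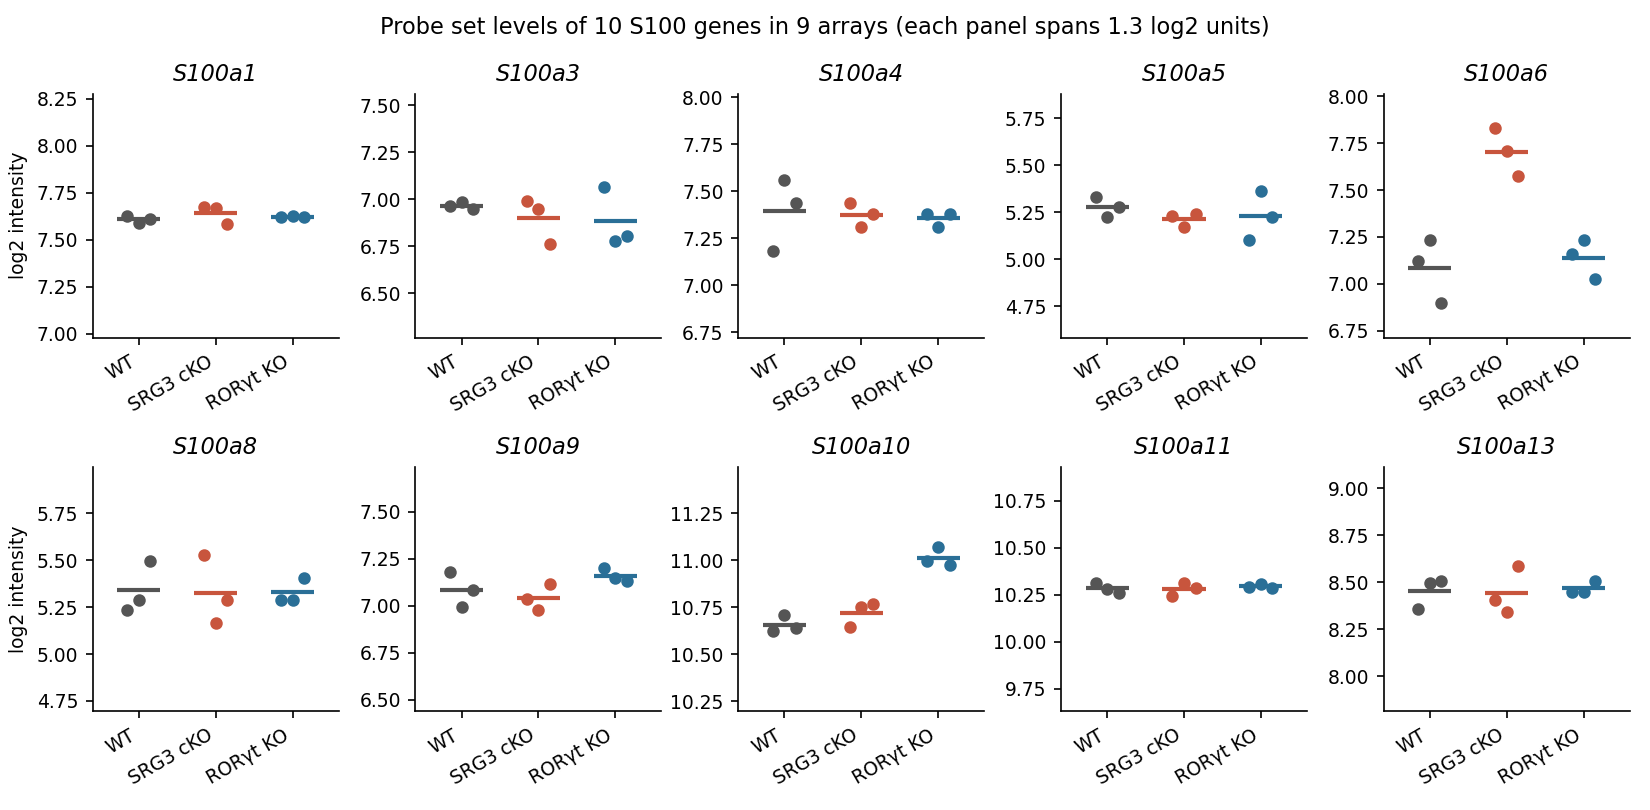
Level of each of the 10 S100 genes (log2 probe set intensity, vertical axis) in the 3 arrays of each genotype (points) with the group mean (bar); every panel spans the same log2 range, so spreads can be compared but not heights between genes. S100a6 is higher in the SRG3 cKO arrays (7.58 to 7.83) than in all others, S100a10 is higher in the RORγt KO arrays (10.97 to 11.07), and no difference in the remaining panels passed the test.

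The count of members that passed was 1 of 10 in SRG3 cKO against WT (higher), 1 of 10 in RORγt KO against WT (higher) and 2 of 10 in the direct comparison, S100a6 higher and S100a10 lower in SRG3 cKO. Over all genes 0.523%, 1.04% and 1.28% passed in these comparisons. By direction, 0.28% rose and 0.243% fell in SRG3 cKO cells, 0.694% rose and 0.343% fell in RORγt KO cells, and 0.595% were higher and 0.681% lower in SRG3 cKO than in RORγt KO cells. In SRG3 cKO against WT 116 genes passed, and 195 with the replicate number as a block. That count was 13 with only the 2 groups compared, 18 to 87 with 1 array left out and 1 without the 3 arrays that lay apart, so the share moves with the arrays fitted. Nothing is read from the members' share, since the list was drawn up with S100a6 known to have changed. The median change over the 10 members was -0.01, 0.01 and -0.01, against -0.01, -0.00 and -0.00 over all genes. Groups did not overlap for 1, 1 and 3 members, where 13.6%, 14.3% and 14.6% of all genes had groups that did not overlap. The third member in the direct comparison was S100a9.

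S100a4 encodes metastasin, which binds the heavy chain of non-muscle myosin IIA. WT arrays read 7.18, 7.56 and 7.44, SRG3 cKO arrays 7.44, 7.31 and 7.38, and RORγt KO arrays 7.38, 7.31 and 7.38. The knockout arrays all lay within the spread of the WT arrays, of which replicate 1 was the lowest. The changes against WT were -0.02 in SRG3 cKO (95% interval -0.21 to 0.17) and -0.04 in RORγt KO (-0.22 to 0.15), so a change of S100a4 as large as that of S100a6 lies outside both intervals.

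S100a11 encodes calgizzarin, which binds annexin A1. Its levels ran from 10.25 to 10.31 over all 9 arrays, the narrowest range of the 10 members at 0.069, while that of S100a6 was the widest at 0.928. The changes were -0.00 in SRG3 cKO (95% interval -0.08 to 0.08) and 0.01 in RORγt KO (-0.07 to 0.09), both against WT. S100a10 and S100a11 are neighbours on the chromosome, and a rise of S100a11 as large as that of S100a10 in RORγt KO cells lies outside the interval. The array also holds a probe set for the pseudogene S100a11-ps, chosen after its values were seen, which ranged from 9.48 to 10.05 and did not pass (0.09 in RORγt KO against WT, adjusted p = 0.829). Whether probes of the gene and the pseudogene cross-hybridize was not tested.

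S100a13, whose product takes part in the unconventional release of FGF1 and IL-1α, stood at 8.36, 8.50 and 8.51 in WT, 8.41, 8.34 and 8.59 in SRG3 cKO and 8.45, 8.45 and 8.51 in RORγt KO arrays. The groups overlapped, and the changes against WT were -0.01 (-0.16 to 0.14) and 0.01 (-0.13 to 0.16). S100a1, best known from heart and skeletal muscle, ranged from 7.59 to 7.67 over all arrays, and its changes against WT were 0.03 (-0.05 to 0.12) and 0.01 (-0.07 to 0.10). S100a3, a hair cuticle protein gene, ranged from 6.76 to 7.07, with changes of -0.07 (-0.25 to 0.12) and -0.08 (-0.26 to 0.10). None of these 3 genes had groups that stood apart.

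S100a8 and S100a9, the calprotectin genes, were followed as genes of myeloid cells. S100a8 was at 5.23, 5.29 and 5.50 in WT, 5.53, 5.17 and 5.29 in SRG3 cKO, and 5.29, 5.29 and 5.41 in RORγt KO arrays, below the 25th percentile of all values on the arrays (6.12), and the groups overlapped. S100a9 was at 7.18, 6.99 and 7.08 in WT, 7.04, 6.98 and 7.12 in SRG3 cKO, and 7.20, 7.15 and 7.13 in RORγt KO arrays. All SRG3 cKO arrays lay below all RORγt KO arrays for S100a9, a difference of -0.12 (95% interval -0.24 to 0.01, limma adjusted p = 0.486) that did not pass. S100a5, a gene of olfactory neurons, ranged from 5.10 to 5.36, also below that percentile, and its changes against WT were -0.06 (-0.21 to 0.08) and -0.05 (-0.19 to 0.09). Background was not measured here, so signal above it is not shown for any member, S100a5 and S100a8 among them. S100a10, S100a11 and S100a13 lay above the 75th percentile (8.23), and the other 5 members lay between. These percentiles describe brightness, since intensities of different probe sets do not order transcripts by amount.

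**Figure D2:**
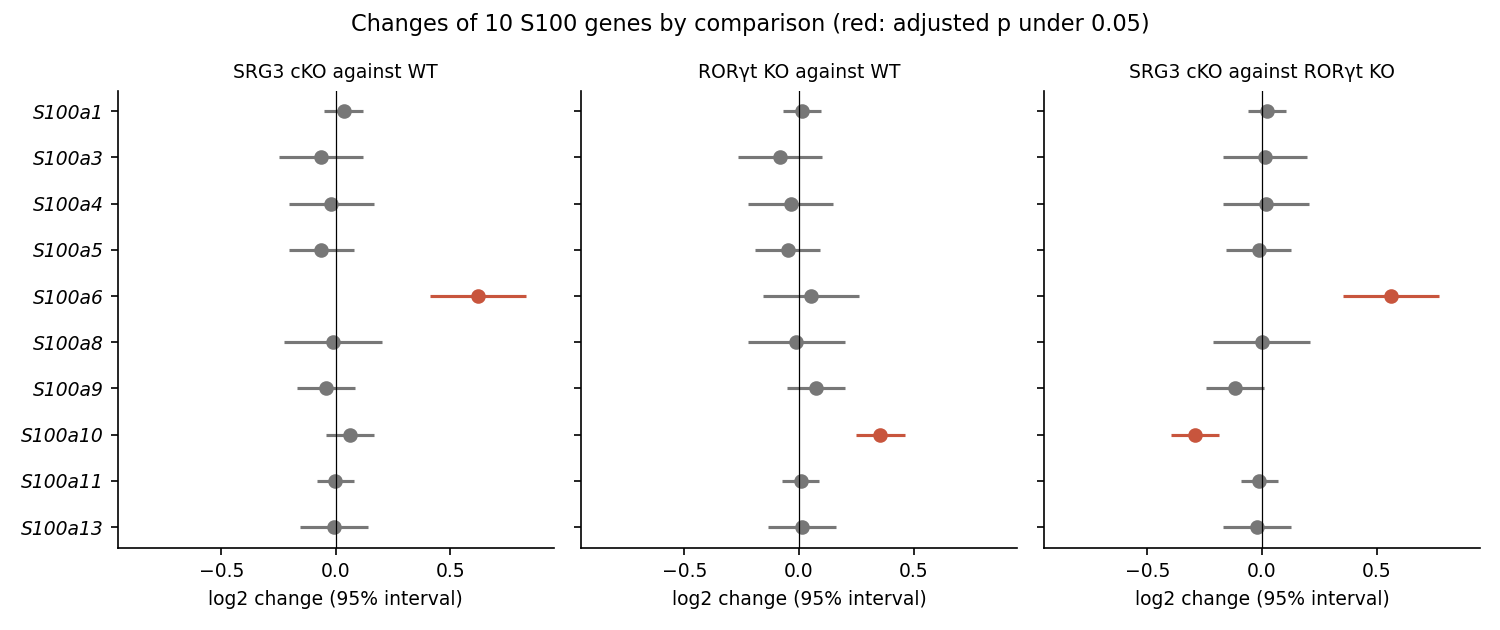
Difference of group means on the log2 scale (horizontal axis) for each of the 10 S100 genes in the 3 comparisons, with 95% intervals from limma and 3 arrays per group; red marks an adjusted p below 0.05. S100a6 stands at 0.62 in SRG3 cKO against WT and S100a10 at 0.36 in RORγt KO against WT, and the intervals of the other 8 genes include 0 in all 3 panels.

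The binding partners were read from a list of 13 measured annexin and Ahnak genes. Of these, 1 rose in SRG3 cKO cells (Ahnak), 2 rose in RORγt KO cells (Anxa2 and Anxa6) and none fell against WT. Over all genes 0.28% rose and 0.243% fell in SRG3 cKO cells, and 0.694% rose and 0.343% fell in RORγt KO cells. These shares also stand beside the counts against WT of the lists below. The median change over the list was 0.02 in SRG3 cKO and 0.08 in RORγt KO, against -0.01 and -0.00 over all genes. Groups did not overlap for 6 of the 13 genes in each of the 3 comparisons, beside 13.6%, 14.3% and 14.6% of all genes. In the direct comparison Anxa2 was lower and Anxa9 higher in SRG3 cKO cells.

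Anxa2 encodes annexin A2, which forms a heterotetramer with S100A10 at the plasma membrane. It read 9.61, 9.39 and 9.17 in WT, 9.21, 9.47 and 9.56 in SRG3 cKO, and 10.00, 10.21 and 9.94 in RORγt KO arrays. As for S100a10, all RORγt KO arrays lay above all others and the other groups overlapped. The change in RORγt KO against WT was 0.66 (SE 0.12, 95% interval 0.39 to 0.93, limma adjusted p = 0.0411), in SRG3 cKO against WT 0.02 (-0.25 to 0.29), and between the knockouts -0.64 (adjusted p = 0.0411). When 1 array was left out, the call against WT was lost in 7 of 9 fits, those without WT replicate 2 or 3, SRG3 cKO replicate 2 or 3 or any RORγt KO array, with adjusted p up to 0.182, and the call between the knockouts also in 7 of 9, all but those without WT replicate 1 or 3, up to 0.164.

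Ahnak encodes a giant scaffold protein that binds the complex of S100A10 and annexin A2. It read 8.98, 8.98 and 8.84 in WT, 9.31, 9.20 and 9.25 in SRG3 cKO, and 9.06, 9.05 and 9.05 in RORγt KO arrays. All SRG3 cKO arrays were above the others, with a change against WT of 0.32 (SE 0.05, 0.21 to 0.43, limma adjusted p = 0.0289). RORγt KO arrays were at 0.12 against WT (0.01 to 0.23, adjusted p = 0.344), and the direct comparison did not pass (0.20, adjusted p = 0.121), so the rise of Ahnak is not shown to differ between the knockouts. When 1 array was left out, this call against WT was lost in 8 of 9 fits, all but that without WT replicate 1, with adjusted p up to 0.123. Anxa6 stood at 0.15 in SRG3 cKO against WT and did not pass between the knockouts (limma adjusted p = 0.570). In RORγt KO cells it rose by 0.24 (adjusted p = 0.05 when rounded) and passed in 0 of those 9 fits. Anxa9 was higher in SRG3 cKO than in RORγt KO cells by 0.52 (adjusted p = 0.00345), a call kept in all 9 of them, and stood at 0.31 (adjusted p = 0.0736) and -0.21 (adjusted p = 0.185) against WT. Anxa5 and Anxa1, chosen after their values were seen, were at 0.08 and 0.00 in RORγt KO against WT.

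**Figure D3:**
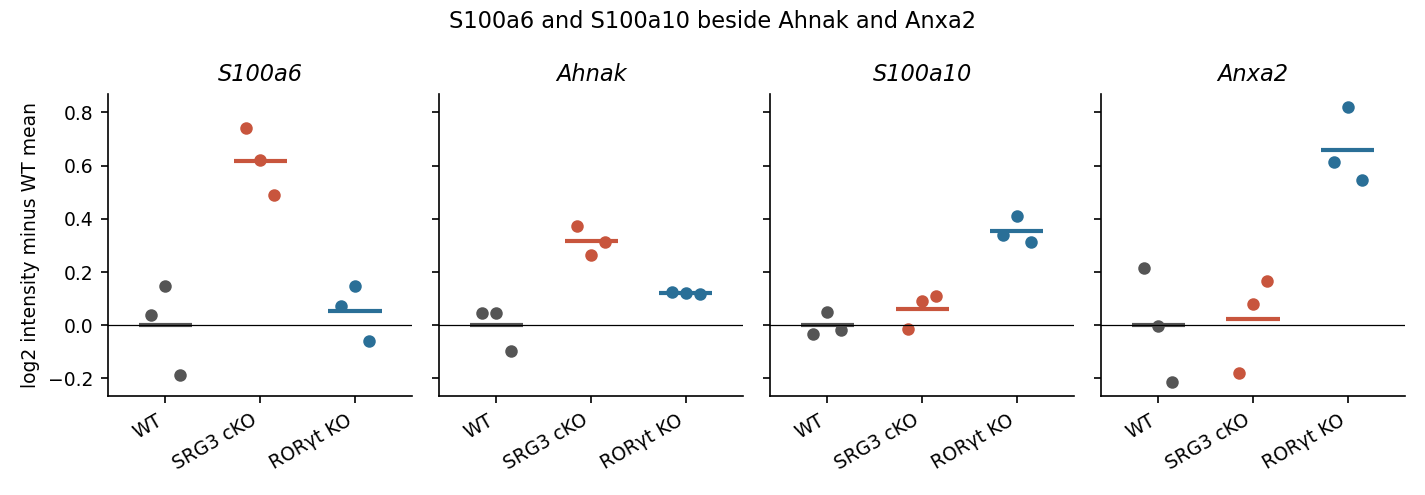
Levels of S100a6, Ahnak, S100a10 and Anxa2 (log2 intensity minus the mean of the WT arrays, vertical axis) in the 3 arrays of each genotype (points) with the group mean (bar). S100a10 and Anxa2 are raised in the RORγt KO arrays (means 0.36 and 0.66), S100a6 and Ahnak in the SRG3 cKO arrays (means 0.62 and 0.32). Ahnak is also higher in every RORγt KO array than in every WT array (mean 0.12), and its difference between the knockouts did not pass. With 1 array left out, the calls of Ahnak and Anxa2 against WT were lost in 8 and 7 of 9 fits.

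Of 12 other measured binding partners, Ppfibp1, the gene for liprin-β1, which binds S100A4, fell in both knockouts (-0.23, limma adjusted p = 0.0481, in SRG3 cKO and -0.24, adjusted p = 0.0318, in RORγt KO) and none rose. It was at 9.16, 9.27 and 9.25 in WT, 8.96, 8.98 and 9.03 in SRG3 cKO, and 9.01, 8.96 and 8.99 in RORγt KO arrays, so every knockout array was below every WT array. Both calls share the WT arrays, and when 1 array was left out they were lost in 8 and 7 of 9 fits (kept without WT replicate 1 and without WT replicate 1 or SRG3 cKO replicate 1), with adjusted p up to 0.187 and 0.135. With the replicate number as a block the SRG3 cKO call was lost too (adjusted p = 0.0528). Cacybp was at -0.16 in SRG3 cKO (-0.36 to 0.04) and -0.23 in RORγt KO (-0.43 to -0.04, adjusted p = 0.308), neither past the test. Myh9, the myosin partner of S100A4, was at -0.07 in SRG3 cKO (-0.22 to 0.07).

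Among 8 genes for receptors of released S100 proteins, none passed in either knockout against WT. Emb, for embigin, which binds S100A8, was higher in SRG3 cKO than in RORγt KO cells by 0.35 (limma adjusted p = 0.0133), a call lost without SRG3 cKO replicate 1 or SRG3 cKO replicate 3. Ager, which encodes RAGE, ranged from 7.66 to 7.95 and Tlr4 from 6.16 to 6.39, with no group apart. Among 15 other EF-hand calcium sensor genes, none passed in SRG3 cKO against WT and 1 rose in RORγt KO cells (Sri, at 0.21). Its limma adjusted p was 0.05 when rounded, and it passed in 0 of 9 fits with 1 array left out. Sri was at 0.14 in SRG3 cKO against WT and did not pass between the knockouts (limma adjusted p = 0.590). Stim1, the calcium sensor of the endoplasmic reticulum, was higher in SRG3 cKO than in RORγt KO cells by 0.25 (limma adjusted p = 0.0208). That call was lost without SRG3 cKO replicate 2, SRG3 cKO replicate 3, RORγt KO replicate 1, RORγt KO replicate 2 or RORγt KO replicate 3.

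None of the 8 other S100 genes measured (S100a2, S100a7a, S100a7l2, S100a14, S100a16, S100b, S100g and S100z) passed in any comparison, and none had groups that stood apart. S100a2 had the largest change against WT in RORγt KO cells, 0.16 (0.02 to 0.29, limma adjusted p = 0.323). The 7 fused S100 genes, which encode long epidermal proteins with an S100 domain at one end, did not pass either.

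Most S100 genes lie in 1 cluster of the mouse genome that also holds genes of the outer skin layer. In the RefSeq gene order the 10 members fall into a group from S100a1 to S100a9 and a pair, S100a11 and S100a10, with skin genes between. From 5 genes before the first member to 5 after the last, 70 genes were measured, 15 of them S100 genes and 55 not. None of the 55 passed in any comparison, where 0.523%, 1.04% and 1.28% of all genes passed. Their changes ran from -0.29 to 0.29 in SRG3 cKO against WT and from -0.27 to 0.39 in RORγt KO against WT, with medians of -0.00 in both. Groups did not overlap for 3, 4 and 1 of them, beside 13.6%, 14.3% and 14.6% of all genes. Between S100a9 and S100a11 lay 49 of the 55, with a median level of 6.45. Of these 49, 13 lay above the median of all values (7.13). Signal above background was not shown for these genes, so nothing is read from their lack of calls. The nearest measured genes outside were Chtop, at 0.00 and -0.04, and Tdpoz2, next to S100a10, at -0.01 and 0.25 (limma adjusted p = 0.210 in RORγt KO). S100a6 lies between S100a5, at -0.06 in SRG3 cKO, and S100a7a, at -0.01, and neither passed.

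**Figure D4:**
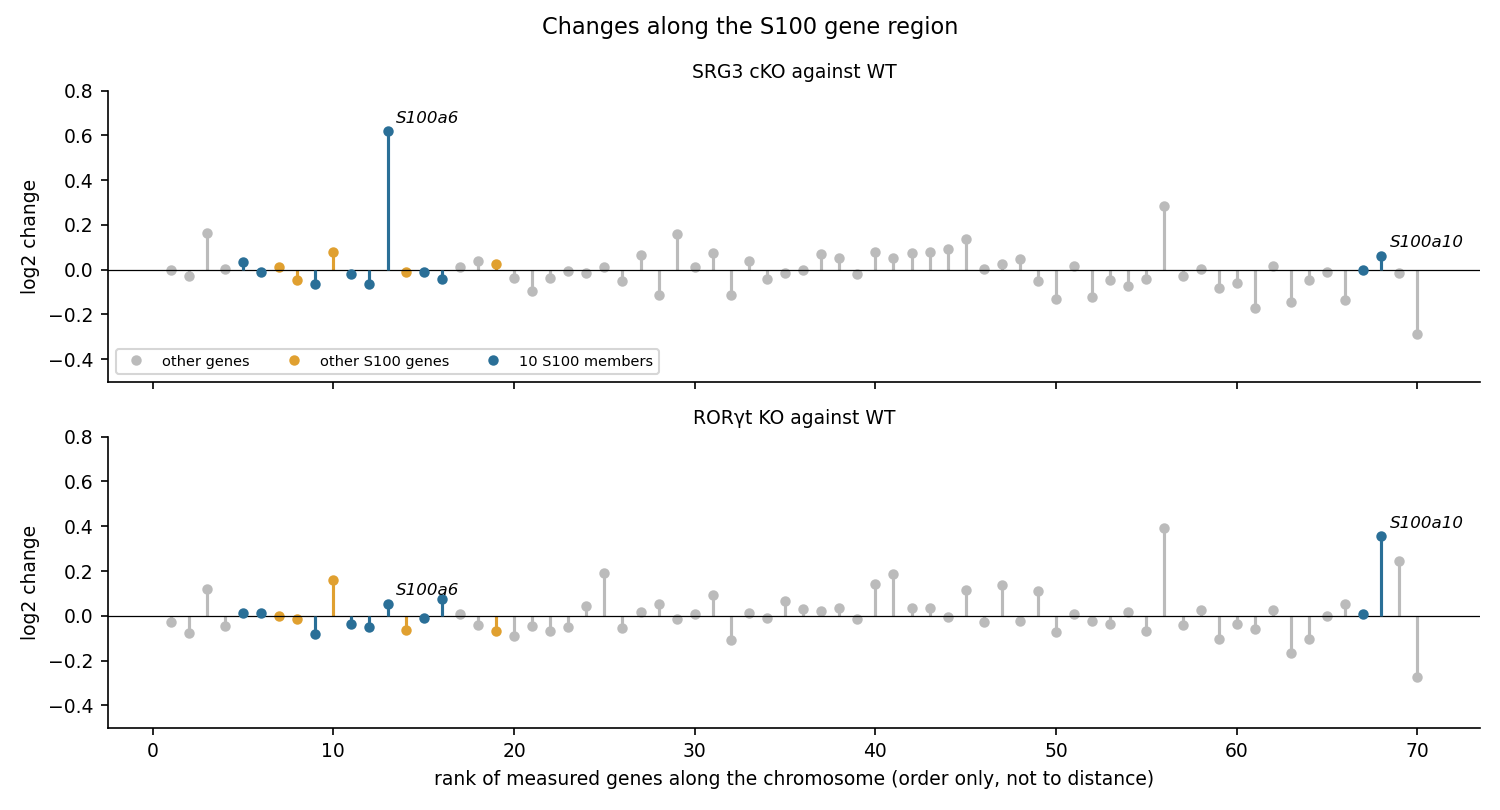
Difference of group means on the log2 scale (vertical axis) for 70 measured genes in their order along the chromosome (horizontal axis, rank only), with the 10 S100 members in blue, the other S100 genes in orange and all other genes in grey. S100a6 at 0.62 in SRG3 cKO against WT (top) and S100a10 at 0.36 in RORγt KO against WT (bottom) are the only genes of the stretch that passed the test in these comparisons.

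Genes of effector and memory T cells, in which S100 genes are known to be high, did not move as 1 group. Of 12, none rose and Cd44 fell in SRG3 cKO cells (-0.36, limma adjusted p = 0.0488, lost whichever array was left out), while Lgals3 and Crip1 rose and Id2 fell in RORγt KO cells. Lgals3, for galectin-3, was at 8.61, 8.46 and 8.61 in WT, 8.30, 8.31 and 8.30 in SRG3 cKO, and 9.02, 9.03 and 8.87 in RORγt KO arrays. The 3 groups did not overlap for Lgals3, at 0.41 in RORγt KO (adjusted p = 0.0144), -0.26 in SRG3 cKO (adjusted p = 0.112) and -0.67 between the knockouts (adjusted p = 0.000679). Crip1, for a small LIM protein, rose by 0.40 in RORγt KO cells (adjusted p = 0.0267), a call kept without WT replicate 1, SRG3 cKO replicate 1 or RORγt KO replicate 3 and lost without any other array. That of Lgals3 against WT was lost without WT replicate 2, RORγt KO replicate 1 or RORγt KO replicate 2. Id2, a regulator of effector differentiation, fell by 0.32 (adjusted p = 0.0140), a call lost without WT replicate 2, WT replicate 3, RORγt KO replicate 1 or RORγt KO replicate 2. In SRG3 cKO against WT, Crip1 was at 0.17 and Id2 at -0.13. Neither passed between the knockouts (limma adjusted p = 0.191 and 0.0865). Vim, for vimentin, was lower in SRG3 cKO than in RORγt KO cells (-0.48, limma adjusted p = 0.00919), a call lost without RORγt KO replicate 1. The median change of the list was -0.08 in SRG3 cKO and 0.04 in RORγt KO, against -0.01 and -0.00 over all genes. Against WT the groups did not overlap for 7 and 4 of the 12 genes, where 13.6% and 14.3% of all genes had groups that did not overlap. Of 6 measured genes of naive T cells, Ccr7 (0.66) and Igfbp4 (0.50) rose in RORγt KO cells and none passed in SRG3 cKO cells. Both were also higher in every SRG3 cKO array than in every WT array (0.44 and 0.18). Neither passed between the knockouts (limma adjusted p = 0.600 and 0.0502). The median change of the naive list was 0.16 in SRG3 cKO and 0.21 in RORγt KO, against -0.01 and -0.00 over all genes. Its groups did not overlap for 5 and 4 of the 6 genes, beside the same 13.6% and 14.3% of all genes. The call of Ccr7 (adjusted p = 0.05 when rounded) held with 1 array left out only without WT replicate 1, and that of Igfbp4 was lost without RORγt KO replicate 1 or RORγt KO replicate 2.

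The nearest profiles were sought over all genes, by the root mean square difference of levels after each gene was centred on its mean over the 9 arrays. For S100a6, which itself varied by 0.30 on this measure, they were Ahcyl2 (0.0959), Nckap1 (0.0976) and Ulbp1 (0.10). For S100a10, which varied by 0.16, they were Cyth3 (0.0359), Stx7 (0.0544) and Dpp4 (0.0598), the last the gene for the ectopeptidase CD26. These differences describe shape over the same arrays only.

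The cultures were checked by markers and by the targeted gene. Smarcc1 fell to 8.47 to 8.79 in SRG3 cKO arrays from 10.13 to 10.39 in WT arrays, and the gene for RORγt was not analysed here. None of the T cell markers (10 measured of 12) passed. Their array means were 10.64 to 10.75 in WT, 10.77 to 10.89 in SRG3 cKO and 10.68 to 10.77 in RORγt KO, so the SRG3 cKO arrays lay above the WT arrays, as they did for S100a6. The median change of that list was 0.15 in SRG3 cKO and 0.09 in RORγt KO, against -0.01 and -0.00 over all genes, and its part in the change of S100a6 was not tested. Groups did not overlap for 4 of the 10 T cell markers in each comparison, beside 13.6%, 14.3% and 14.6% of all genes. Il17a fell in both knockouts (-2.19 in SRG3 cKO and -3.85 in RORγt KO cells). Of 25 myeloid markers, Ly6g rose in RORγt KO cells (5.71, 5.85 and 6.10 in WT, 6.45, 6.63 and 6.30 in RORγt KO, limma adjusted p = 0.0425, kept without WT replicate 3 or RORγt KO replicate 3 and lost without any other array) and none other passed. The array means of the list were 6.67 to 6.71 in WT, 6.64 to 6.69 in SRG3 cKO and 6.71 to 6.74 in RORγt KO. Of the defining markers, Lyz2 (6.27 to 6.79), Itgam (6.10 to 6.32), Csf1r (7.04 to 7.19) and Csf3r (7.26 to 7.47) overlapped between all groups. Ly6g, also a defining marker, was higher in every RORγt KO array than in every other array. Its change in SRG3 cKO against RORγt KO was -0.63 (limma adjusted p = 0.0235). Its mean over the arrays, 6.06, lay below the 25th percentile (6.12), and signal above background was not shown for it. Arrays have no level of 0. The part of other cells in the change of S100a10 was not tested. In such bulk cultures fewer cells of a type and less RNA per cell cannot be told apart.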

How the data were processed

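The deposited table held log2 probe set intensities of 41345 probe sets; that the scale is log2 follows from the values, and per the labels' protocols the authors labelled sense cDNA with biotin for single-channel GeneChip arrays. Background correction, summarization and normalization are not given in the sources used here. Array medians were 7.12 to 7.14. Of the probe sets, 23521 had 1 gene symbol, 1814 several and 16010 none; symbols were updated by gene ID (23328 matched) from RefSeq (GRCm38.p6), used for names and gene order. The probe set with the highest mean stood for a gene (1082 had several). No sample column was left unused (0).

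All 9 arrays were fitted together with limma 3.58.1 (R 4.3.3), Benjamini-Hochberg adjusted per comparison; the procedure was tested on simulated data. The number of arrays limits the precision. The members and lists were chosen with earlier results of these data known. Genes named are the 10 members, up to 4 passing genes per list and comparison, fixed partners and markers, cluster neighbours and the 3 nearest profiles. Lists covered other and fused S100 genes, annexins, other partners, receptors, EF-hand sensors, effector, naive, T cell, Th17, myeloid, B, CD8 T and NK cell genes; the 4 erythroid genes were not analysed here. No B cell (3 measured) or CD8 T and NK cell gene (4) passed. Of the 6 Th17 genes, 4 fell in SRG3 cKO and 6 in RORγt KO cells. With 1 array left out, the SRG3 cKO call against WT held in all 9 fits for Il17a. It held in 1 of 9 for Il17f, 2 of 9 for Il23r and 4 of 9 for Il22, whose mean level lay below the 25th percentile.

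Replicates 1, 2 and 3 of SRG3 cKO and WT deviated together (correlations 0.287, 0.186 and 0.116). Between unlike numbers of these groups the correlations ran from -0.234 to 0.0772. The labels state no pairing, and such values cannot settle whether the numbers pair the samples, so a pairing remains possible. Values given are still from the fit without the replicate block. The effect of the block is given for the members and the counts, and for other genes only in part. The correlations by number were 0.215, -0.00527 and 0.186 for RORγt KO and WT. For SRG3 cKO and RORγt KO they were 0.223, -0.00544 and 0.137, and a pairing is not shown for these groups either. Alternatives were quantile normalization, median centring, a filter on dim probe sets, probe set choice, the variance model, array weights, the arrays fitted, the replicate block and leaving out each array.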

Additional observations from a re-analysis of the deposited data

How the results depend on the processing

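Each result was recomputed under 20 alternatives (19 for genes such as S100a5, S100a8 and Ly6g, which the filter on dim probe sets removed). The changes of S100a6 and S100a10 that passed kept their direction in all of them. S100a6 against WT passed in 10 of 20 (0.53 to 0.69), S100a10 in RORγt KO against WT in 16 (0.33 to 0.38). In the direct comparison S100a6 passed in 14 and S100a10 in 13.

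Counts of genes that passed were 116, 230 and 283 in SRG3 cKO against WT, RORγt KO against WT and the direct comparison. With only the 2 groups compared, in fits of 6 arrays, they were 13, 43 and 142, and members that passed fell to 0 in the first and 1 in the last. With the replicate block the counts were 195, 374 and 368, and the block changed no call of a member in the fit of 9 arrays. With the block in 6 arrays, added after seeing the data, they were 32, 63 and 131 genes and 0, 0 and 1 members. WT replicate 1, SRG3 cKO replicate 1 and RORγt KO replicate 3 lay apart from their groups on the first principal component. Without these 3, also added after seeing the data, 1, 464 and 39 genes passed, and the members that passed were 0 in the first and 0 in the last. Leaving out each array gave 18 to 87, 45 to 322 and 138 to 261 genes, and 0 to 1, 0 to 1 and 0 to 2 members. The cause was not tested.

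Changes of sign occurred in members that did not pass, all near 0. SRG3 cKO against WT gave, without the 3 arrays, 0.0094 for S100a9 and 0.030 for S100a11, and with array weights 0.0057 for S100a11. RORγt KO against WT gave -0.054 for S100a13 without the 3 arrays. The direct comparison gave, without the 3 arrays, -0.071 for S100a3, -0.0020 for S100a4, 0.0017 for S100a11 and 0.015 for S100a13. It gave -0.019 for S100a3 and 0.00084 for S100a5 with array weights, and 0.0063 for S100a8 with quantile normalization and 0.0069 with centred medians.

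Leaving out each array in turn gave ranges across 0 for other members. In SRG3 cKO against WT these were -0.11 to 0.0038 for S100a3, -0.12 to 0.063 for S100a4, -0.11 to 0.068 for S100a8, -0.090 to 0.0057 for S100a9, -0.019 to 0.015 for S100a11 and -0.078 to 0.043 for S100a13. In RORγt KO against WT these were -0.14 to 0.046 for S100a4, -0.12 to 0.016 for S100a5, -0.039 to 0.13 for S100a6, -0.064 to 0.068 for S100a8, -0.0040 to 0.023 for S100a11 and -0.034 to 0.042 for S100a13. In the direct comparison these were -0.037 to 0.11 for S100a3, -0.013 to 0.051 for S100a4, -0.080 to 0.052 for S100a5, -0.10 to 0.079 for S100a8, -0.027 to 0.0070 for S100a11 and -0.093 to 0.028 for S100a13.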
